A study of Danio rerio with 2 samples.

Results

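The genes of the proteasome were compared between ovaries of wild type and *sox3* knockout zebrafish. Members were taken by name: every listed gene whose symbol starts with psma, psmb, psmc, psmd, psme or psmg and a digit, without the immunoproteasome and related genes under psmb8, psmb9, psmb12 and psmb13. The rule took 52 of 22328 listed genes. Of these, 50 encode subunits, assembly chaperones or activators of the proteasome, and 2 are named only for a partner protein. Those 2 are *PSMC3IP*, known in mammals for meiotic recombination, and *PSME3IP1*, whose human protein binds PSME3. They are given at the end and enter no count. The gene *PSMB10* is taken by the rule although its mammalian product is a subunit of the immunoproteasome, so it was kept apart from the constitutive beta subunits. *PSMB11* and *PSMG4* were not analysed here.

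The proteasome degrades proteins that carry ubiquitin chains. Its 20S core is a stack of rings, with alpha subunits outside and beta subunits inside, and some of the beta subunits cut the substrate. The 19S cap on the end of the core consists of a base, with a ring of ATPases that unfold the substrate, and a lid that removes its ubiquitin. Other activators can take the place of the 19S cap, and dedicated chaperones assemble core and base. In the ovary the proteasome is known for protein turnover during oocyte maturation, when cyclins are destroyed.

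The comparison rests on 2 libraries of adult ovary of the AB strain, labelled wild type (WT) and knockout (KO), each made from pooled fish and with no replicate. They are called the WT-labelled and the KO-labelled library. The knockout fish are homozygous for a frame-shift deletion of *sox3* made by CRISPR/Cas9, a gene of a SoxB1 transcription factor. Wild type and knockout fish came from crosses of heterozygotes, and which of the mutant lines went into the library is not given in the sources used here. FPKM, the fragments of a gene scaled by transcript length and library size, were deposited for each gene, and reads per gene are not used here, so that the depth behind a single value is unknown. No difference could be set against a spread between replicates, and none has a p-value. In bulk ovary RNA, fewer cells of a type and less RNA per cell cannot be told apart.

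*sox3* itself (SOX3) was at 1.18 FPKM in the WT-labelled library and 2.16 FPKM in the KO-labelled library. The targeted gene was not lower under the knockout label, so the libraries are named by their labels throughout, and each direction is that of the labels. Summed FPKM over all listed genes was 572613 in the WT-labelled library and 553683 in the KO-labelled library. All 10 oocyte markers found were at 25 FPKM or more in both libraries, from *GDF9* at 26.6 and 25.65 FPKM to *zp2.1* at 3334.89 and 2924.5 FPKM. Somatic markers were far lower, with summed levels of 49.67 and 60.56 FPKM over 10 markers of granulosa and theca cells. Most of that sum was *CYP17A1*, at 30.73 and 48.96 FPKM. Of all genes at 1 FPKM or more 15.1% were higher and 17.5% lower by 1.4-fold in the KO-labelled library. Of the 6 markers that reached 1 FPKM, 1 was higher by that fold, *CYP17A1*, and 4 were lower. The lower ones were the aromatase gene *CYP19A1* at 2.04 and 1.12 FPKM and a *FOXL2* gene at 3.61 and 1.47 FPKM. With them were *STAR* at 1.88 and 0.46 FPKM and *gsdf* at 6.62 and 4.36 FPKM. The part of granulosa and theca cells in the results below was not tested. Summed levels of 9 leukocyte markers were 14.43 and 16.58 FPKM, and of 5 erythrocyte markers 14.65 and 25.41 FPKM. In each pair of values that follows, the first belongs to the WT-labelled library.

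Proteasome genes were abundant and close to equal in both libraries. Of the 50 genes, 43 were at 10 FPKM or more in both libraries, a level that 30.6% of all listed genes reached. In both libraries 27 members lay above the 90th percentile of listed genes. The summed level of all 50 members was 2728.82 FPKM in the WT-labelled library and 2642.84 FPKM in the KO-labelled library, which was 0.477% of all FPKM in each. The highest members had the same order in both libraries. These were *PSMA3* at 165.73 and 146.74 FPKM, *PSMA8* at 149.74 and 144.51 FPKM, the activator gene *PSME3* at 122.97 and 120.24 FPKM, and *PSMB4* at 112.43 and 97.48 FPKM. The lowest member was *psma6l*, at 0.4 and 0.93 FPKM, the only one below 1 FPKM in both libraries.

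**Figure D1:**
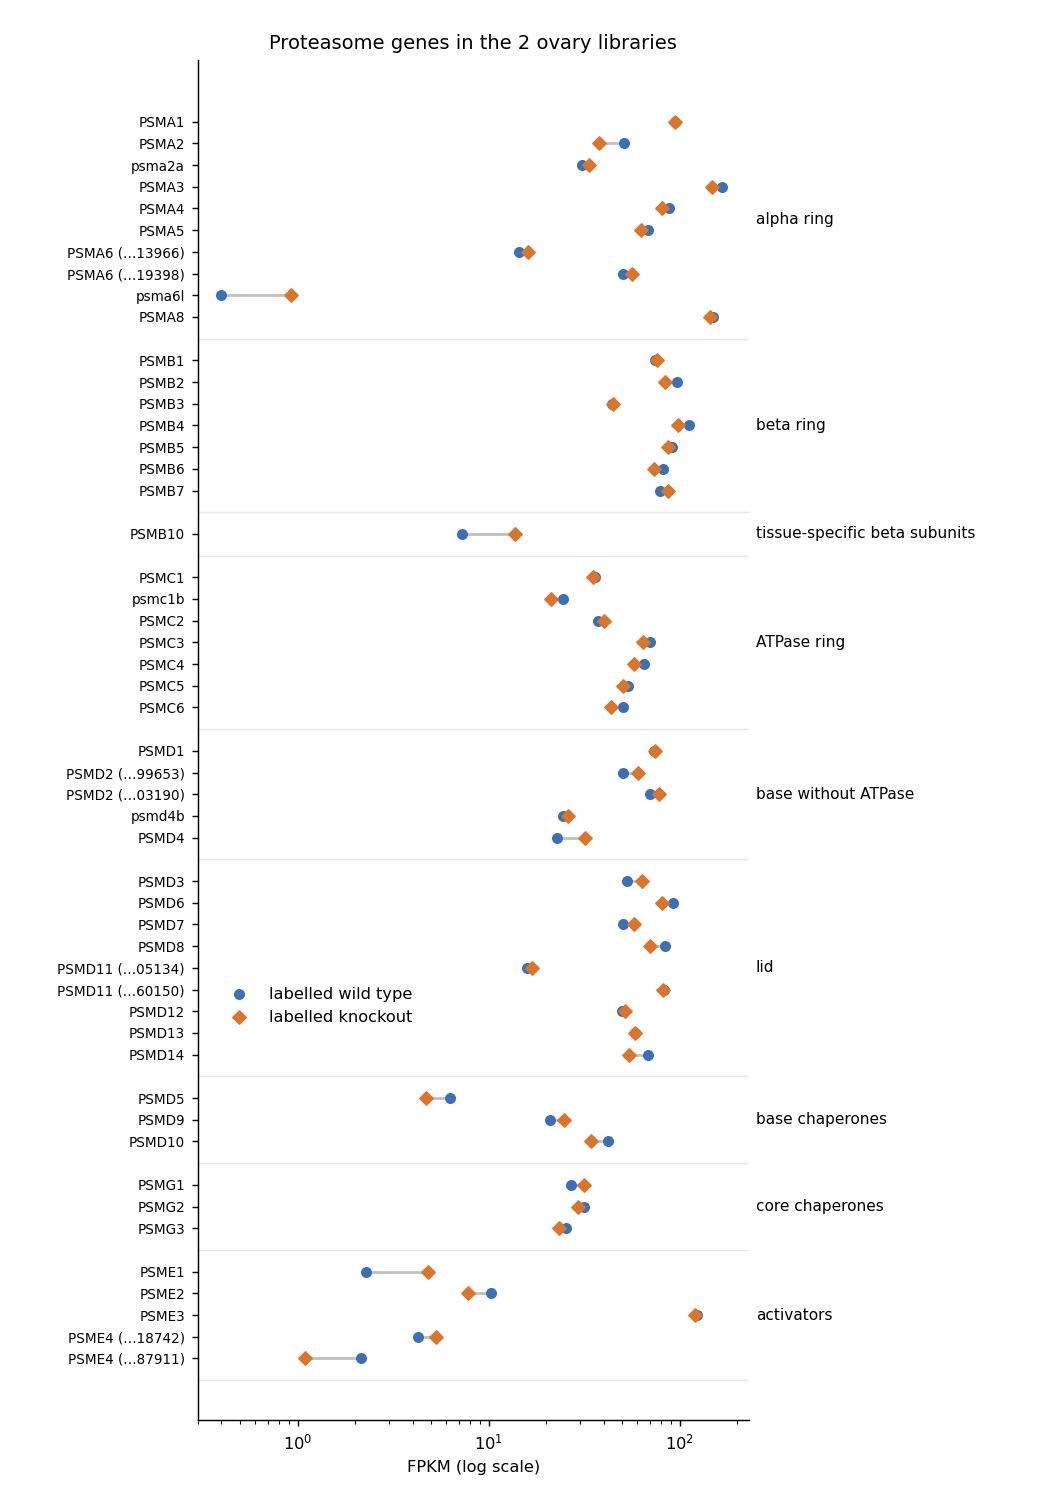
FPKM of the 50 proteasome genes (log axis) in the WT-labelled library (circles) and the KO-labelled library (diamonds), grouped by place in the complex, with 1 value per gene and library. Subunits of the core and of the 19S cap lie mostly between 20 and 150 FPKM with both symbols close together, while *psma6l*, *PSMB10*, *PSME1* and a *PSME4* gene are low and further apart.

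Ratios of knockout over wild type label were computed on a log2 scale after adding 0.1 FPKM to both values. The 49 members that reached 1 FPKM in at least 1 library had a median log2 ratio of -0.03, next to -0.02 for all 13455 genes at that level. The study called genes by 1.4-fold together with a bound on the false discovery rate, and only the fold is used here. By this fold 3 members were higher and 1 was lower in the KO-labelled library, which is 8.16% of the members. Of all genes at that level 32.6% were past 1.4-fold, 15.1% higher and 17.5% lower. Large ratios are more frequent among low genes, and most members are not low. Among the 4659 genes at 20 to 200 FPKM on average 12% were past 1.4-fold, 6.01% in each direction, and of the 41 members in that range 1 gene was. Over all 49 members 4 were higher and 6 lower by 1.2-fold, against 25% and 28.2% of all genes at 1 FPKM or more. The members of that range also lay closer together. Their log2 ratios had an SD of 0.19 across genes, against 0.50 for all genes of the range, whose extremes were -6.33 and 11.32. Interquartile ranges were more alike, -0.18 to 0.10 for the members and -0.19 to 0.16 for all genes of the range. Of these members 90.2% were within 1.2-fold, against 66.1%. Their median level in the WT-labelled library was also higher, 58.05 FPKM against 40.99 FPKM. Beyond 1.2-fold were 1 higher and 3 lower members of that range, against 16% and 17.9% of its genes, or 33.9% in all. These SDs are across genes, which are not replicates. Across the 49 members, levels in the libraries had a Spearman's rho of 0.98, a correlation over genes that share both libraries. Over all genes at 1 FPKM or more it was 0.95. These rho values are not matched for level, as median levels in the WT-labelled library were 50.81 FPKM for the members and 11.9 FPKM for all genes.

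**Figure D2:**
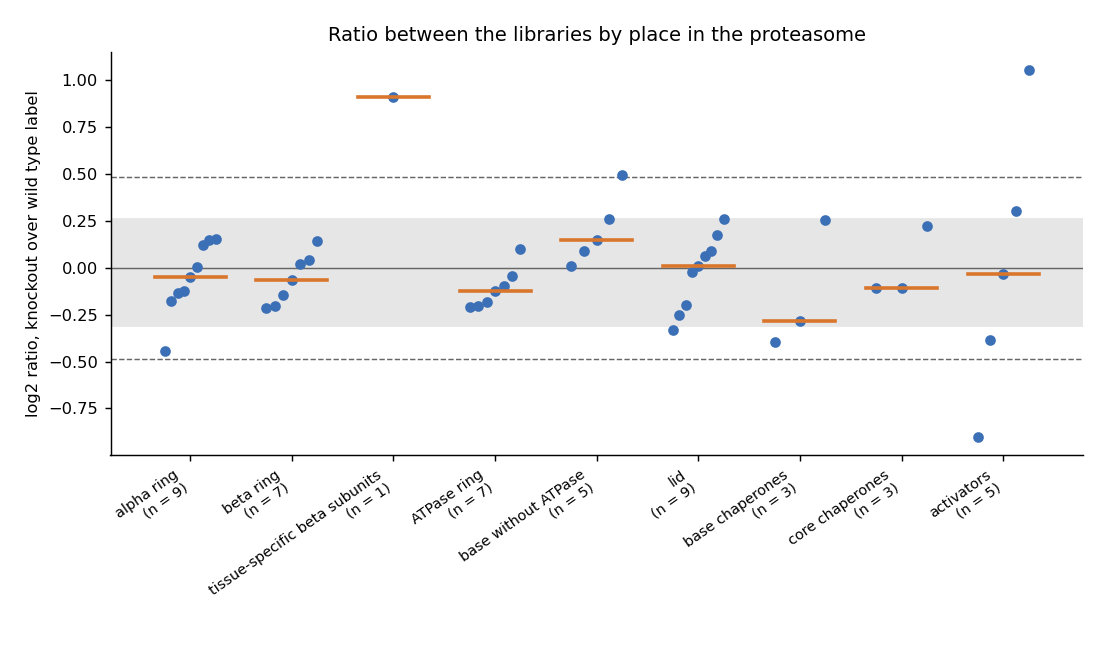
Log2 ratio of FPKM, knockout over wild type label, for the 49 proteasome genes that reached 1 FPKM in at least 1 library, by place in the complex. Points are genes, thick lines medians, dashed lines 1.4-fold and the grey band the interquartile range of all 13455 genes at that level. Nearly all subunits of core and 19S cap lie inside the band, and *PSMB10* and *PSME1* stand highest.

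The alpha ring holds the gate through which substrates enter the core. For its 9 genes at 1 FPKM or more the median log2 ratio was -0.05, and 0 were past 1.4-fold. Past that fold were 32.6% of all genes at 1 FPKM or more and 12% of those at 20 to 200 FPKM on average. *PSMA1* was at 94.39 and 94.71 FPKM, *PSMA4* at 88.17 and 80.85 FPKM, and *PSMA5* at 68.47 and 62.41 FPKM. *PSMA8* is a close relative of *PSMA7*, and the RefSeq gene table gives psma7 as another name of zebrafish *psma8*. No gene under PSMA7 was analysed here. In mammals the name PSMA8 stands for a copy confined to the testis, whereas here it was the second highest alpha gene. Among the genes of the ring at 1 FPKM or more the largest difference was that of *PSMA2* (ENSDARG00000035679), at 51.14 and 37.6 FPKM, a log2 ratio of -0.44, which stays short of 1.4-fold. *psma2a*, the other gene of that subunit, was at 30.83 and 33.57 FPKM and had the opposite direction.

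All 7 genes of the constitutive beta ring were within 1.2-fold, as were 66.1% of all genes at 20 to 200 FPKM on average. The 3 that encode the cutting subunits were near each other in level in both libraries. *PSMB5*, the chymotrypsin-like subunit, was at 90.91 and 87.04 FPKM. *PSMB6*, the caspase-like subunit, was at 81.66 and 73.77 FPKM, and *PSMB7*, the trypsin-like subunit, at 78.78 and 87.16 FPKM. The other genes encode structural subunits of the ring. Of these, *PSMB1* was at 73.94 and 76.26 FPKM, *PSMB2* at 96.73 and 83.3 FPKM and *PSMB3*, the lowest of the ring, at 44.11 and 44.8 FPKM. The median log2 ratio of the beta ring was -0.06.

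Beside these, *PSMB10* (ENSDARG00000043781), whose mammalian product replaces PSMB7 when cells meet interferon, was low and differed more. It was at 7.3 FPKM in the WT-labelled library and 13.82 FPKM in the KO-labelled library, a log2 ratio of 0.91. Of the FPKM of *PSMB7*, *PSMB10* and *psmb13a* together, *PSMB7* held 91.5% in the WT-labelled library and 86.2% in the KO-labelled library. The 4 listed genes left out by the rule had higher values under the knockout label. Of these, *PSMB8* and *psmb13a* stayed below 1 FPKM in both libraries and enter no count. Of all 13455 genes at 1 FPKM or more 6400 were higher. *PSMB9* was at 0.08 and 7.36 FPKM and *psmb12* was listed at 0.01 and 9.93 FPKM. *PSMB8*, listed at 0.01 FPKM in the WT-labelled library, had 0.94 FPKM in the KO-labelled library, and *psmb13a* was listed at 0.01 and 0.09 FPKM. Even there *PSMB5* held 98.9% of the summed FPKM of *PSMB5* and *PSMB8*, and *PSMB6* held 81% of that of *PSMB6*, *PSMB9* and *psmb12*. The constitutive genes thus made up most of the FPKM of each cutting subunit in both libraries. Of the leukocyte markers 6 reached 1 FPKM in at least 1 library, with a median log2 ratio of 0.07 and 5 of them above 0. Of the 6, 1 was past 1.4-fold, *lyz* at 0.49 and 1.48 FPKM. That is 16.7% of them, against 32.6% of all genes at 1 FPKM or more. The 3 markers below 1 FPKM went both ways, with *ptprc* at 0.64 and 0.43 FPKM, *laptm5* at 0.42 and 0.84 FPKM and *csf1ra* at 0.16 and 0.35 FPKM. The part of such cells in the *PSMB10* value was not tested.

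The ATPase ring sits on the core and pulls substrates into it. Of its 7 genes 6 were lower in the KO-labelled library, all within 1.2-fold, and the median log2 ratio was -0.12. Of all 13455 genes at 1 FPKM or more 7026 were lower. *PSMC3* was at 70.18 and 64.38 FPKM, *PSMC4* at 65.27 and 57.48 FPKM and *PSMC5* at 53.94 and 50.47 FPKM. *PSMC6*, whose log2 ratio of -0.21 was the lowest of the ring, was at 50.69 and 43.83 FPKM. Only *PSMC2* had the other direction, at 37.47 and 40.23 FPKM. Past 1.2-fold were 53.2% of all genes at 1 FPKM or more, but only 33.9% of those at 20 to 200 FPKM on average. The 7 genes of the ring lie in that range. Without replicates the direction of their differences has no check.

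The base also holds subunits without ATPase activity, which bind ubiquitin chains and ubiquitin-like domains. All 5 member genes of this kind had a log2 ratio above 0, with a median of 0.15. They stand for only 3 subunits, and of all 13455 genes at 1 FPKM or more 6400 were above 0. Without replicates this direction has no check either. *PSMD4* (ENSDARG00000101295) encodes a ubiquitin receptor and was at 22.71 and 32.01 FPKM, a ratio of 1.41 that is just past the threshold, and *psmd4b* (ENSDARG00000023279) was at 24.6 and 26.18 FPKM. With a pseudocount of 1 FPKM *PSMD4* is no longer past 1.4-fold. The 2 genes under PSMD2, the docking subunit for ubiquitin-like domains, were at 50.28 and 60.31 FPKM (ENSDARG00000099653) and at 69.97 and 77.71 FPKM (ENSDARG00000103190). *PSMD1*, the other large scaffold subunit of the base, was at 73.72 and 74.1 FPKM.

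The lid had a median log2 ratio of 0.01 over its 9 member genes, with 5 above 0 and 4 below, and 0 past 1.4-fold. The share past 1.4-fold was 32.6% over all genes at 1 FPKM or more and 12% over those at 20 to 200 FPKM on average. *PSMD14*, the deubiquitinase that takes the ubiquitin chain off the substrate, had the largest difference of the lid, at 68.32 and 54.22 FPKM, a log2 ratio of -0.33. *PSMD7*, which forms a dimer with it, was at 50.68 and 57.34 FPKM and so had the opposite direction. The scaffold genes of the lid went both ways too. *PSMD3* was at 53.26 and 63.8 FPKM, *PSMD8* at 83.48 and 70.11 FPKM and *PSMD6* at 92.36 and 80.43 FPKM. *PSMD12* was at 49.73 and 51.89 FPKM and *PSMD13* at 58.05 and 58.48 FPKM.

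Subunits of the core and cap are built into the 26S proteasome in fixed numbers, so their transcript levels were also set beside each other per subunit, with the FPKM of the genes of a subunit summed where they reached 1 FPKM, which leaves out *psma6l*. FPKM is scaled by length, so genes can be set beside each other, but only roughly. The 14 core subunits had a median of 85.1 FPKM in the WT-labelled library and 82.1 FPKM in the KO-labelled library. For the 17 subunits of the 19S cap taken by name the medians were 60.6 and 58.2 FPKM. The cap subunits *ADRM1*, at 79.83 and 88.93 FPKM, and *SEM1*, at 87.68 and 83.94 FPKM, lack such names and are not included. The ranges of core and cap overlapped widely in both libraries. Core subunits ran from 44.11 to 165.73 FPKM in the WT-labelled library and from 44.8 to 146.74 FPKM in the KO-labelled library. Cap subunits ran from 37.47 to 120.25 FPKM and from 40.23 to 138.02 FPKM. Within the ATPase ring the highest subunit was 1.87 times the lowest in the WT-labelled library and 1.6 times in the KO-labelled library. In the alpha ring the same quotient was 2.54 and 2.35, and in the beta ring 2.55 and 2.18.

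Zebrafish keeps more than 1 gene for some subunits, and 7 subunits were listed under 2 or 3 genes. RSEM divides reads that fit several genes between them, so the split between similar copies is less certain than their sum. A copy with most of the level was evident for *PSMD11*, where one gene (ENSDARG00000060150) held 83.9% of the FPKM of the subunit in the WT-labelled library and 82.8% in the KO-labelled library. The same held for *PSMA6*, where one gene (ENSDARG00000019398) was at 50.81 and 56.31 FPKM, the next (ENSDARG00000013966) at 14.47 and 16.09 FPKM and *psma6l* at 0.4 and 0.93 FPKM. *PSMC1* held 59.6% and 62.3% of its subunit, with *psmc1b* at 24.45 and 21.22 FPKM. The largest difference in share was that of *PSME4*, described with the activators. The share of *PSMA2* over *psma2a* was 62.4% and 52.8%, and that of *PSMD4* over *psmd4b* was 48% and 55%. Only 1 gene is named psmd2 in the RefSeq annotation of another assembly, GRCz12tu, and the 2 listed genes of that name may therefore share reads.

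**Figure D3:**
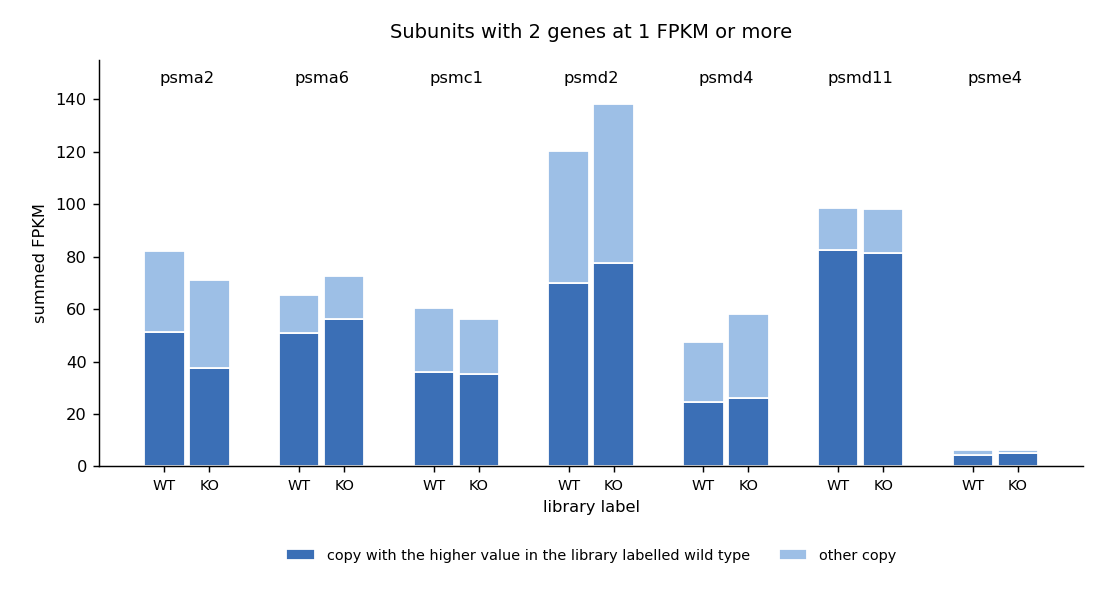
Summed FPKM of the 7 subunits with 2 genes at 1 FPKM or more, in the WT-labelled library (WT) and the KO-labelled library (KO), with the gene that had the higher value in the WT-labelled library in dark blue and the other in light blue. The bars of psmd11 and psme4 are nearly equal in both libraries, and the dark part of psma2 is smaller under the knockout label.

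The genes of chaperones that assemble the proteasome had lower medians than the subunit genes, though single genes overlapped. Medians were 20.87 and 24.93 FPKM for base chaperones, 27.09 and 29.38 FPKM for core chaperones and 65.27 and 60.31 FPKM for 26S subunits. The lowest gene of the 26S subunits at 1 FPKM or more was at 14.47 and 16.09 FPKM. *PSMB10*, which is not among these, was lower, at 7.3 and 13.82 FPKM. The genes of the core chaperones *PSMG1*, *PSMG2* and *PSMG3*, which help to build the alpha ring, were all between 23.49 and 31.7 FPKM in both libraries. *PSMG1* was at 27.09 and 31.65 FPKM, and *PSMG2*, its partner in a heterodimer, at 31.7 and 29.38 FPKM. Of the base chaperones, *PSMD10*, also known as gankyrin, was at 42.02 and 34.49 FPKM and *PSMD9* at 20.87 and 24.93 FPKM. *PSMD5*, the lowest, was at 6.26 and 4.73 FPKM, a log2 ratio of -0.40. None of these 6 genes was past 1.4-fold. Of all genes at 1 FPKM or more 32.6% were, and of those at 20 to 200 FPKM on average 12%. By 1.2-fold 2 of the 3 base chaperones were lower, against 28.2% of all genes at 1 FPKM or more.

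Among the activators, *PSME3* stood apart by level. Its product forms a nuclear ring that opens the core without ubiquitin, and its 122.97 and 120.24 FPKM were above all but 2 of the other members in both libraries. The genes of the other activators were at 10.25 FPKM or less in both libraries. *PSME1* and *PSME2* encode subunits of one ring, which interferon induces in mammals, and they had opposite directions. *PSME1* (ENSDARG00000002165) was at 2.27 FPKM in the WT-labelled library and 4.82 FPKM in the KO-labelled library, a log2 ratio of 1.05. *PSME2* (ENSDARG00000033144) was at 10.25 and 7.83 FPKM, a log2 ratio of -0.38. *PSME4* encodes a single-chain activator, which in the mouse is needed for normal sperm formation. One of its genes (ENSDARG00000087911) was the only member past 1.4-fold in the lower direction, at 2.14 and 1.1 FPKM, and the other (ENSDARG00000018742) was at 4.28 and 5.31 FPKM. Together they had 6.42 and 6.41 FPKM, so that the sum was equal while the share of the second gene was 66.7% and 82.8%. All members past 1.4-fold other than *PSMD4* were thus below 14 FPKM in both libraries, where large ratios are frequent.

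Other genes of the ubiquitin-proteasome pathway were counted from lists by function. Beside each count stands the share past 1.4-fold of all genes at 1 FPKM or more, 32.6%. Of genes at 20 to 200 FPKM on average it was 12%. Of 10 further genes of proteasome subunits, factors and interacting enzymes, 1 was past 1.4-fold. This was *USP14* (ENSDARG00000025889), a deubiquitinase that docks on the base, at 37.83 FPKM in the WT-labelled library and 23.14 FPKM in the KO-labelled library, a log2 ratio of -0.71. The genes of a second deubiquitinase of the cap, *UCHL5*, at 55.17 and 44.47 FPKM, and of the core maturation factor *POMP*, at 59.81 and 46.14 FPKM, had the same direction but stayed within 1.4-fold. *ADRM1*, the ubiquitin receptor to which UCHL5 binds, was at 79.83 and 88.93 FPKM. *SEM1*, a small lid subunit without the psm name, was at 87.68 and 83.94 FPKM. The median log2 ratio of this list was -0.07.

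Proteasome genes are induced in mammals by the transcription factor NFE2L1 when proteasome activity falls. *NFE2L1* (ENSDARG00000030616) was at 0.83 and 2.92 FPKM, a log2 ratio of 1.70, the only 1 of 8 genes of this list past 1.4-fold. That is 12.5% of the list, against 32.6% of all genes at 1 FPKM or more. Its second gene, *nfe2l1b*, was at 3.73 and 4 FPKM. *DDI2*, the protease that activates NFE2L1 in mammals, was at 34.93 and 35.28 FPKM, and *NGLY1*, which removes its sugars, at 18.09 and 17.02 FPKM. *NFE2L1* reached 1 FPKM only in the KO-labelled library, and its part in the members' values was not tested.

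Of 9 genes of ubiquitin and its activating enzymes, 0 were past 1.4-fold, with *ubc*, a polyubiquitin gene, at 777.06 and 759.54 FPKM and *uba1*, the main activating enzyme, at 158.86 and 169.83 FPKM. Of 11 genes of shuttle proteins and of the VCP segregase, which hand substrates to the proteasome, 1 was past 1.4-fold, *rad23ab* at 5.24 and 8.51 FPKM. *VCP* itself was at 231.75 and 223.44 FPKM. The COP9 signalosome and the translation factor eIF3 are built of subunits related to those of the lid. Of 7 genes of the COP9 signalosome, *COPS5*, its catalytic subunit and a relative of *PSMD14*, was past 1.4-fold, at 29.2 and 20.73 FPKM. The log2 ratio of *COPS5* was -0.49, only just past the threshold. Of 15 genes of eIF3, *EIF3E* at 5.09 and 21.7 FPKM and *EIF3M* at 110.9 and 78.29 FPKM were past 1.4-fold. *eif3ea*, the other gene of that eIF3 subunit, was at 163.38 and 153.24 FPKM. Past 1.4-fold were 0% of the ubiquitin list, 9.09% of the shuttle list, 14.3% of the COP9 list and 13.3% of the eIF3 list. This compares with 32.6% of all genes at 1 FPKM or more and 12% of those at 20 to 200 FPKM on average. Medians of the lists on ubiquitin, shuttles, COP9 and eIF3 lay between -0.07 and 0.06.

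**Figure D4:**
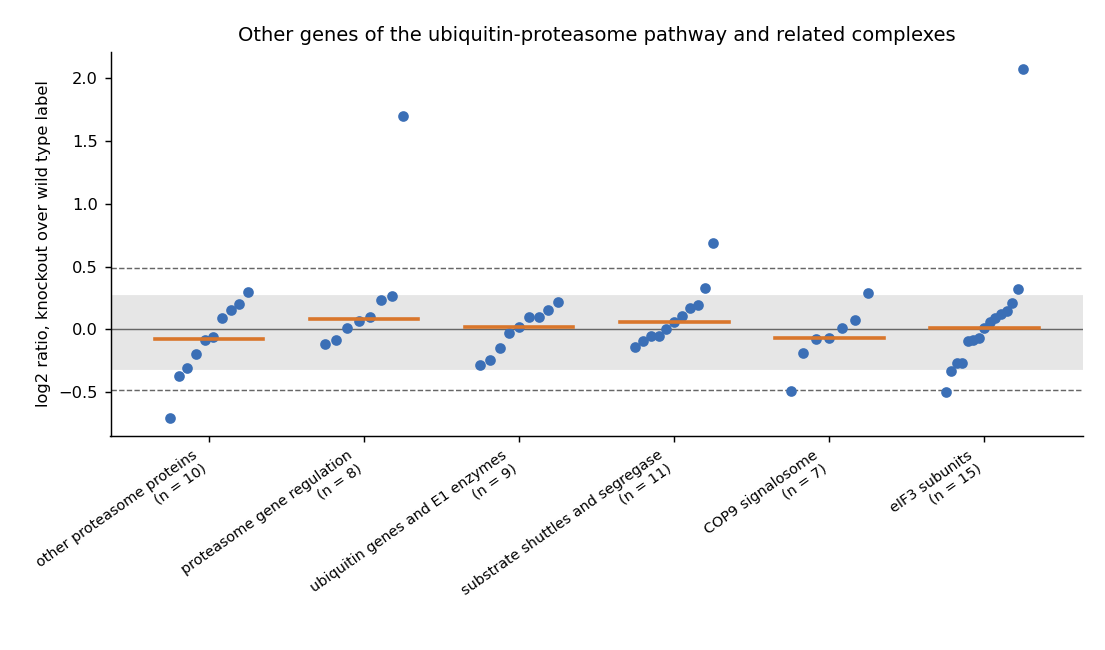
Log2 ratio of FPKM, knockout over wild type label, for genes that reached 1 FPKM in at least 1 library, in 6 lists of the ubiquitin-proteasome pathway and of complexes related to the lid. Points are genes, thick lines medians, dashed lines 1.4-fold and the grey band the interquartile range of all genes at that level. *USP14* is the lowest point of the first list, and *NFE2L1* and *EIF3E* are the highest points overall.

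In the list of immunoproteasome and interferon genes, 8 genes reached 1 FPKM in at least 1 library. Of these 2 were higher and 1 lower by 1.4-fold, 37.5% in all, near the 32.6% of all genes at that level. The higher genes were *PSMB9* and *psmb12*, given above, which reached 1 FPKM only in the KO-labelled library, and the lower was *tap2t*, a gene of a peptide transporter, at 14.98 and 5.25 FPKM. Of the genes of interferon regulators, *irf1b* was at 25.26 and 22.47 FPKM and *irf1a* at 3.71 and 2.79 FPKM, both within 1.4-fold. The 2 genes named for a partner were *PSMC3IP*, at 66.89 and 55.31 FPKM, and *PSME3IP1*, at 22 and 18.91 FPKM, both within 1.4-fold.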

How the data were processed

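Ovary RNA of wild type and *sox3* knockout fish was sequenced as 1 library per genotype. The authors enriched mRNA with oligo(dT), sequenced it on the BGISEQ-500 platform, mapped clean reads with HISAT and Bowtie2 and calculated the deposited FPKM with RSEM. Genome build GRCz10 is named in the submitters' processing notes. Versions of these tools were not given in the sources used here. Values have 2 decimals and a minimum of 0.01, which may stand for 0.

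Symbols were found for 20336 of 22328 gene IDs and are often those of the human match. List names were matched exactly, then in capitals, then without a closing a or b. The members and lists were chosen with earlier results of these data known. Genes were kept at 1 FPKM or more in either library, and ratios used a pseudocount of 0.1 FPKM, which makes ratios of low genes smaller. Counts past 1.4-fold stand without a test. Named were all members past 1.4-fold, the highest and lowest of each group, the cutting subunits, subunits with several genes, and list genes past 1.4-fold or with the largest ratios. The other genes named were chosen after their values were seen. Alternatives were other pseudocounts, scalings, filters, folds and means. The values of a few list genes are not reported here. Scaling, ratios and counts past 1.4-fold were checked on simulated data made from genes at 5 FPKM or more in the WT-labelled library. Medians of the groups and the matching of names were not part of that check. Python 3.11.15, numpy 2.4.6, pandas 2.3.3 and matplotlib 3.10.9 were used.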

Additional observations from a re-analysis of the deposited data

How the results depend on the processing

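Scaling by a trimmed mean or by the median of ratios shifted all log2 ratios by 0.02 or less. Of the values obtained for the members and their groups under other settings, 105 stayed within 0.1 on the log2 scale or within 1.5 times for counts, and 7 moved further. Some settings could not alter a group, such as leaving out psma8, psmb10 and psmb11 for the lid. The bound of 0.1 also lets a small value change sign, as for the lid with a median of 0.01 and a mean of -0.02. The median of the base chaperones was -0.28 and their mean -0.14, and for the core chaperones the median was -0.11 but the mean 0.0022, with 3 genes in each. At 2-fold in place of 1.4-fold 1 member was higher and 0 were lower, and at 1.2-fold 6 were lower. By 1.4-fold no member was lower (0) among those at 5 FPKM or more in either library. The same held (0) when the genes of a subunit were summed, a setting added after the data had been seen. Of the values for the other lists, 45 stayed within these bounds and 4 did not, 3 of them in the immunoproteasome and interferon list. No paired analysis was possible because each genotype has 1 library. With 1 library per genotype and FPKM only, neither the spread between fish nor the counting error of a gene could be given, and low genes such as *PSME1* and *NFE2L1* are the least certain.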
